A study of Homo sapiens with 20 samples.

Results

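The miR-320 family is a group of microRNAs (miRNAs) that share one seed, the stretch near the 5′ end of a miRNA that pairs with target messages. Its members miR-320a, miR-320b, miR-320c and miR-320d were taken by name from the count tables, 4 of 2588 mature miRNAs listed, and they occupied 7 hairpin copies. Most miRNA hairpins are cut from a longer transcript in the nucleus by DROSHA and then trimmed by DICER in the cytoplasm. The hairpin of miR-320a is known to be an exception: it is formed directly at a transcription start, carries a 5′ cap, leaves the nucleus through exportin-1 and is cut by DICER without DROSHA, and its 3p arm enters Argonaute. Whether the smaller relatives are made in the same way is less well known.

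The study asked what the proline-rich disordered part of DROSHA does, with 20 small RNA libraries in 8 groups. HCT116 cells come from a colon cancer, and HEK293E cells derive from embryonic kidney. The groups were HCT116 DROSHA knockout cells expressing GFP (1 library), untreated wild-type HCT116 cells (1 library), HEK293E knockout cells with DROSHA-p140 and with full-length DROSHA (3 libraries each), HCT116 knockout cells with DROSHA-p140 and with full-length DROSHA (3 libraries each), and wild-type HCT116 cells held for 72 hr in 0.1% or 9.1% fetal bovine serum (FBS; 3 libraries each). The 12 rescued libraries and the GFP library came from cells labelled as DROSHA knockout, which miRNA counts cannot check at the DROSHA gene itself. p140 is a shortened DROSHA, and the labels give neither the number of knockout clones nor the way DROSHA was supplied.

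The mature sequences show why reads of these miRNAs are hard to tell apart. They are given 5′ to 3′ from RefSeq for GRCh38.p14, with the seed (bases 2 to 8) in capitals, for 3 of the 4 members and for 2 relatives.
miR-320b: aAAAGCUGgguugagagggcaa
miR-320c: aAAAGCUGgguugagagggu
miR-320d: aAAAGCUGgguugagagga
miR-320e: aAAGCUGGguugagaagg
miR-4429: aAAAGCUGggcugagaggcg
miR-320c shared its leading 19 bases with miR-320b, and miR-320d its leading 18. Their 3′ ends alone therefore set them apart, at lengths of 22 (miR-320b), 20 (miR-320c) and 19 bases (miR-320d). miR-320e starts 1 base further into the common sequence and so has another seed, AAGCUGG. Among 2545 mature entries of the table, miR-4429 was the only non-member with the seed AAAGCUG.

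miR-320b, miR-320c and miR-320d each have 2 hairpins, shown here for miR-320b with the mature miRNA in capitals, because the copies differ outside it and not within it.
miR-320b-1: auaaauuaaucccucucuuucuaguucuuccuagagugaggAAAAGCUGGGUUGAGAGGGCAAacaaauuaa
miR-320b-2: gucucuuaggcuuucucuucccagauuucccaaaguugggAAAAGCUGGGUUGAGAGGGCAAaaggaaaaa
The deposited counts of the lower copy were 99.1% of the higher copy for miR-320b, 99.6% for miR-320c and 99.8% for miR-320d. In all 20 libraries the copies lay within 5% of each other, and the largest gap was 35 reads. The values of these 3 members thus stand for both hairpins and cannot be assigned to one.

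In hg38, mature miR-320a lies at chr8:22244975-22244996 on the minus strand, outside genes, with its end 108 bases from the start of POLR3D (a subunit of RNA polymerase III) on the opposite strand. miR-320b-1 (chr1:116671787-116671808, plus strand) is intergenic, and miR-320b-2 (chr1:224257049-224257070, minus strand) sits in an intron of NVL on the same strand. miR-320c-1 (chr18:21683559-21683578, plus strand) and miR-320c-2 (chr18:24321716-24321735, plus strand) lie within introns of ABHD3 and OSBPL1A, but on the strand opposite to those genes. miR-320d-1 (chr13:40727828-40727846, minus strand) and miR-320d-2 (chrX:140926172-140926190, minus strand) are intergenic. Of the 7 copies, 1 is thus intronic to a gene on its own strand.

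The libraries held 38288 (knockout with GFP) to 2822317 miRNA reads (0.1% FBS, replicate 3), so the knockout library is the shallowest by far. Levels are given as CPM, a library's reads scaled to a common total of miRNA reads, and are relative: more miR-320 in a cell and fewer other miRNAs cannot be told apart from them. The labels do not say that replicates came from separate cultures, so the spread behind each p-value may be technical. Replicate 3 of each HCT116 group had less miR-320 than replicates 1 and 2 and is left out in turn below. The epithelial miR-200 cluster miRNAs (miR-200a, miR-200b, miR-200c, miR-141 and miR-429, all 5 with reads) checked the labelled lines. They summed to 40046 to 52348 CPM in the serum libraries, 47661 CPM in untreated wild-type cells and 4936 CPM in the GFP library, but to 186 to 229 CPM in HCT116 cells with p140 and 285 to 355 CPM with full-length DROSHA. HEK293E libraries held 146 to 271 CPM of them. The rescued HCT116 libraries therefore lacked these epithelial markers at the wild-type level and lay close to HEK293E in them. Other marker lists differed between rescued HCT116 and HEK293E libraries. Muscle, liver and neuron miRNAs summed to 5.04 to 16.4 CPM in rescued HCT116 and 102 to 210 CPM in HEK293E libraries. Blood-cell miRNAs held 9.77 to 48.9 against 111 to 953 CPM, and intestinal miRNAs 115 to 254 against 324 to 434 CPM. In wild-type HCT116 cells blood-cell miRNAs summed to 187 to 210 CPM in 0.1% FBS, 55.6 to 76.8 CPM in 9.1% FBS and 68.9 CPM untreated. Intestinal miRNAs summed there to 468 to 495, 151 to 191 and 187 CPM in the same order. With 0.1% FBS the blood-cell list thus lay inside the HEK293E range and the intestinal list above it, so neither list tells the lines apart. miR-21-5p was the most abundant miRNA in each rescued HCT116 and each wild-type library, but in no HEK293E library. The rescued libraries are called HCT116 here by their labels, and the epithelial difference touches each result that sets them against wild-type or HEK293E libraries.

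miR-320a was among the most abundant miRNAs wherever DROSHA had been removed or replaced. It ranked first of all miRNAs in the GFP library and in 5 of the 6 HEK293E libraries, and second in HEK293E full-length replicate 2. It ranked 2, 2 and 3 in HCT116 cells with p140 and 4, 4 and 7 with full-length DROSHA. In wild-type cells it ranked 11 without treatment, 18, 16 and 29 in 0.1% FBS, and 25, 29 and 30 in 9.1% FBS.

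The 4 members together took 65.6% of all miRNA reads in the GFP library (25107 of 38288; exact 95% Clopper-Pearson interval 65.1 to 66.1%), against 1.28% in untreated wild-type cells (1.26 to 1.31%). Intervals of this kind cover counting error only. The share averaged 14.4% ± 1.89 in HEK293E cells with p140, 14.4% ± 7.27 in HCT116 cells with p140, 8.98% ± 1.02 in HEK293E cells with full-length DROSHA and 3.80% ± 1.22 in HCT116 cells with full-length DROSHA (SD, n = 3 each). It averaged 1.20% ± 0.258 in 0.1% FBS and 0.907% ± 0.150 in 9.1% FBS (SD, n = 3 each). Ordered by their means, the p140 groups of both lines overlapped, as did HCT116 with p140 and HEK293E with full-length DROSHA. The remaining neighbours in that order were separate down to untreated wild type, which lay within the range of 0.1% FBS, and the serum groups overlapped. miR-320a supplied most of the family in each library, from 86.0% (9.1% FBS, replicate 2) to 94.0% (HEK293E with p140, replicate 2).

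**Figure D1:**
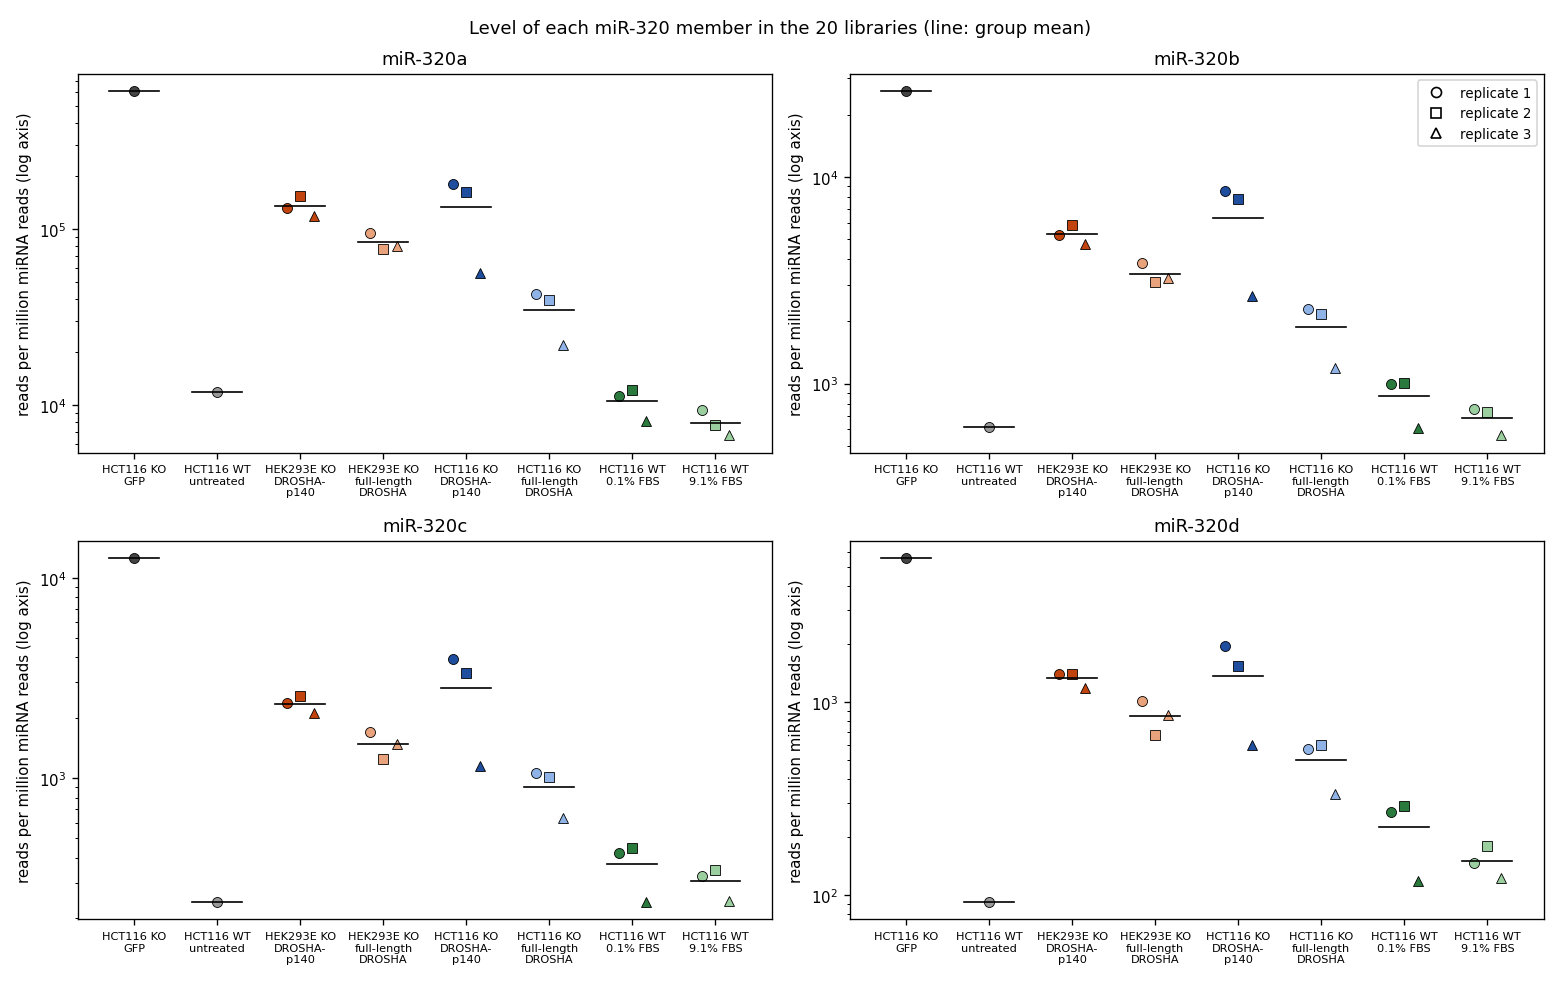
Level of each member in CPM (log axis) in each of 8 groups; symbols are libraries by replicate number and lines are group means. In CPM all 4 members are highest in the GFP knockout library and lowest in wild-type libraries, with replicate 3 at the bottom of each HCT116 group.

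In the knockout with GFP, miR-320a stood at 611575 CPM, against 11889 CPM in untreated wild-type cells. miR-320b had 26013 CPM in the knockout and 614 CPM in wild type, miR-320c had 12563 CPM in the knockout and 240 CPM in wild type, and miR-320d 5589 CPM in the knockout and 92.2 CPM in wild type. All 4 were thus higher per library total in the knockout, and lower there when set against the list of DROSHA-independent miRNAs described next. With 1 library each there is no replicate check and no test, and the ratios carry counting intervals only. They were 51.4-fold for miR-320a (95% interval 50.3 to 52.7), 42.4-fold for miR-320b (38.1 to 47.2), 52.2-fold for miR-320c (44.3 to 61.8) and 60.6-fold for miR-320d (46.6 to 79.5).

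Among 194 miRNAs with at least 100 reads in either of these libraries, 13 (6.7%) were over 40-fold higher in the knockout, and these 13 were also the only ones above 2-fold. They were the 4 members, 6 of a list of miRNAs taken here to be made without DROSHA, and 3 named after their values were seen, miR-1260b, miR-4521 and miR-7706. The other 181 had a median ratio of 0.157 and a highest ratio of 0.469. The knockout library was far shallower (38288 against 856658 reads). A miRNA that reached 100 reads in it alone was therefore above 2-fold through the filter itself. This held for miR-320d (214 reads in the knockout, 79 in wild type) and miR-1226-3p (103 and 11), so their place among the 13 is not independent of the filter. That list (26 mature miRNAs) held miRNAs classed here as mirtrons, a class whose hairpins are excised by splicing. It also held miR-484 and miR-3615, whose hairpins lie at a transcription start or first exon. The list was set by name, and whether each of its miRNAs is made without DROSHA or by splicing was not tested. Its members summed to 10.6% of reads in the knockout and 0.104% in wild type, a ratio of 102 (94.6 to 109). miR-484 was 76.7-fold, miR-3615 73.8-fold, the mirtron miR-877-5p 175-fold and the mirtron miR-1226-3p 210-fold higher in the knockout. Relative to the summed list, miR-320a was at 0.506 of its value in untreated wild type (0.494 to 0.518), so its rise over that single library was smaller than that of the list. Reads of miR-320a were 5.78 times those of the list in the knockout and 11.4 times in untreated wild type, the highest of the 20 libraries. Other wild-type libraries lay on both sides of the knockout, at 3.33 to 4.01 times in 9.1% FBS and 6.60 to 7.54 times in 0.1% FBS. With the members left out of the library totals, which they mostly filled in the knockout, the ratio of miR-320a was 148-fold.

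With p140 in place of full-length DROSHA in HCT116 cells, all 4 members rose with TMM or library-total scaling, while miR-320b, miR-320c and miR-320d turned slightly negative, uncalled, on the scale of the DROSHA-independent list given below. miR-320a had 181479, 162970 and 56619 CPM with p140, against 42885, 39348 and 21960 CPM with full-length DROSHA. The groups did not overlap, and replicate 3 was the lowest library of each. miR-320b spanned 2667 to 8511 CPM with p140 and 1194 to 2298 CPM with full-length DROSHA, and miR-320c 1153 to 3946 CPM with p140 and 632 to 1063 CPM with full-length DROSHA. miR-320d spanned 599 to 1960 CPM with p140 and 335 to 601 CPM with full-length DROSHA, an overlap of 1 library each. Higher in every p140 library than in any full-length library were thus 3 of 4 members, beside 32.7% of all miRNAs tested. In edgeR's quasi-likelihood test with Benjamini-Hochberg adjustment, the log2 fold changes were 1.90 ± 0.46 for miR-320a (SE; adjusted p = 0.0103), 1.71 ± 0.46 for miR-320b (0.0149), 1.60 ± 0.45 for miR-320c (0.0174) and 1.40 ± 0.45 for miR-320d (0.0269). These 4 of 4 calls stand beside 266 of 446 miRNAs called in either direction (59.6%) and 127 called higher (28.5%). The median over all miRNAs tested was -0.11.

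How many members were called in HCT116 changed when a single library was left out. The count was 1 without full-length replicate 3 and 2 without p140 replicate 1 or p140 replicate 2. Those fits called 46.1%, 42.1% and 37.6% of all miRNAs tested, against 59.6% in the main fit. miR-320a was called whichever library was left out, at 1.53 to 2.18. With both libraries numbered 3 left out, an alternative chosen after seeing the data, 4 of 4 were called, at 1.49 to 1.97, where 74.4% of all miRNAs tested were called.

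All 4 members also rose with p140 in HEK293E cells. miR-320a had 132746, 154470 and 118756 CPM with p140, against 94853, 76912 and 80586 CPM with full-length DROSHA, without overlap. miR-320b spanned 4719 to 5834 CPM with p140 and 3091 to 3835 CPM with full-length DROSHA. miR-320c spanned 2106 to 2560 CPM with p140 and 1249 to 1694 CPM with full-length DROSHA, and miR-320d 1183 to 1407 CPM with p140 and 674 to 1017 CPM with full-length DROSHA. All 4 members were thus higher in every p140 library than in any full-length library, as were 9.13% of all miRNAs tested. The log2 fold changes were 0.77 ± 0.15 for miR-320a (edgeR, adjusted p = 0.0041), 0.72 ± 0.17 for miR-320b (0.0089), 0.75 ± 0.19 for miR-320c (0.012) and 0.72 ± 0.21 for miR-320d (0.027). Here 110 of 416 miRNAs were called (26.4%), and 22 of them were higher (5.29%), so the 4 members were 4 of 22 miRNAs that rose. One member was called without p140 replicate 2, where 19.2% of all miRNAs tested were called. None was called when all 18 replicated libraries shared one estimate of the spread. There the lowest adjusted p was 0.0934, and 18% of all miRNAs tested were called. HEK293E libraries also held blood-cell miRNAs (6 in the list, miR-223-3p at 0), which summed to 111 to 281 CPM with p140 and 455 to 953 CPM with full-length DROSHA, and their part in the result was not tested.

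Over both lines, the family's share of reads was 8.03 percentage points higher with p140. The shares with p140 were 14.2%, 16.4% and 12.7% in HEK293E and 19.6%, 17.6% and 6.10% in HCT116. With full-length DROSHA they were 10.1%, 8.19% and 8.62% in HEK293E and 4.68%, 4.31% and 2.41% in HCT116. Within each line every p140 library exceeded every full-length library. The exact permutation test within lines gave p = 0.005 (two-sided), the smallest it can give, and an adjusted p of 0.04 over 8 share comparisons. It did not pair libraries by replicate number, and no paired test of the share was run. A single line, with 3 libraries against 3, cannot go below 0.1.

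The rise with p140 was larger in HCT116 than in HEK293E by point estimate with TMM, while on the scale of the DROSHA-independent list all 4 differences turned positive (0.10, 0.25, 0.40 and 0.55 for miR-320a to miR-320d), with none called. The difference of the log2 fold changes (HEK293E minus HCT116) was -1.16 ± 0.49 for miR-320a, -1.02 ± 0.50 for miR-320b, -0.88 ± 0.50 for miR-320c and -0.70 ± 0.51 for miR-320d. None of the 4 passed in the edgeR interaction test (adjusted p = 0.20, 0.26, 0.36 and 0.50), where 17 of 515 miRNAs were called (3.3%). With the replicate number as a block, 3 of 4 were called, with differences of -1.04 for miR-320a (adjusted p = 1.48e-05), -0.90 for miR-320b (5.82e-04) and -0.73 for miR-320c (0.0139), while miR-320d had -0.58 (0.0725); that fit called 102 of 515 miRNAs (19.8%). Without HCT116 p140 replicate 3, the fit that has no block called 3 of 4 members, beside 85 of 570 miRNAs (14.9%). The HCT116 libraries in this comparison are those with the low epithelial miRNAs given above.

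The rises with p140 were also computed on the scale of the DROSHA-independent list, which holds no miR-320 member. On that scale the log2 differences between p140 and full-length DROSHA were 0.03 (miR-320a), -0.17 (miR-320b), -0.29 (miR-320c) and -0.47 (miR-320d) in HCT116 and 0.08 to 0.13 in HEK293E, and none was called. In the fits with TMM, a scaling that sets the bulk of miRNAs level, the list itself rose in HCT116, with 14 of 14 tested members called higher and a median of 1.82, beside 1.65 for the miR-320 members. In HEK293E 3 of 11 tested list members were called higher, with a median of 0.57 beside 0.74 for the miR-320 members; these were miR-484, miR-3615 and miR-877-5p. As a ratio of reads within a library, miR-320a to the list differed between p140 and full-length DROSHA by 0.09 on the log2 scale over both lines (exact permutation test within lines, p = 0.57). Between lines that ratio did differ, by -0.61 (HEK293E minus HCT116), without overlap within either DROSHA form. The exact permutation test within forms gave p = 0.005 and an adjusted p of 0.04 over 8 comparisons.

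**Figure D2:**
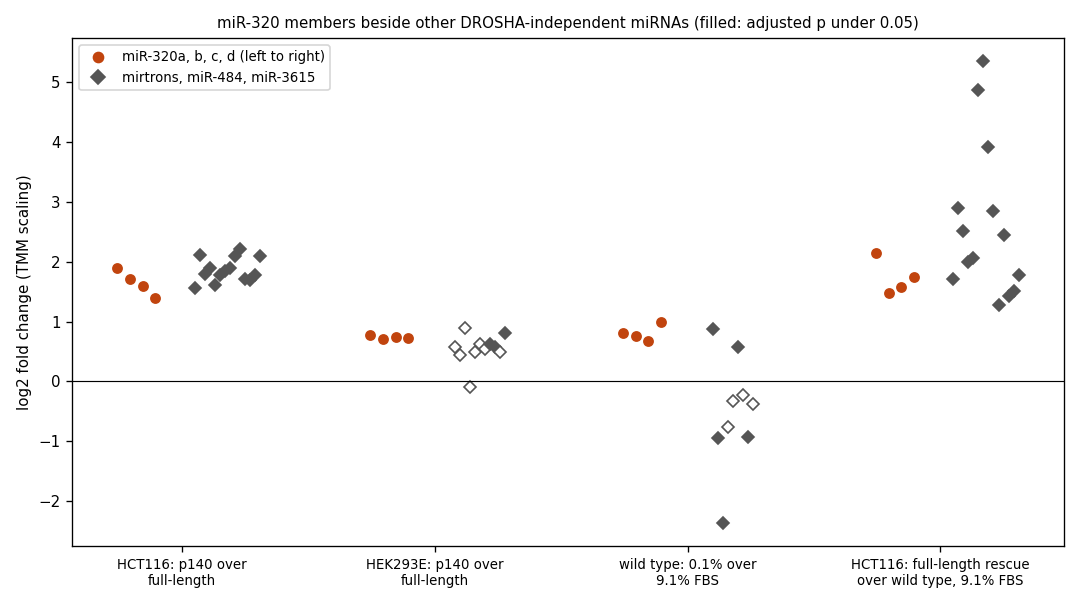
Log2 fold change (TMM scaling) of the 4 miR-320 members (circles) beside mirtrons, miR-484 and miR-3615 of the DROSHA-independent list (diamonds) in 4 comparisons; filled symbols have an adjusted p under 0.05. With p140 in HCT116 members span 1.40 to 1.90 and the list 1.56 to 2.21. With p140 in HEK293E members span 0.72 to 0.77 and the list -0.10 to 0.89. With 0.1% FBS members span 0.68 to 0.99, while list members lie on both sides of 0, at -2.37 to 0.88.

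Between the lines, the order of levels with full-length DROSHA depended on the scale. With full-length DROSHA, CPM of miR-320a was higher in each HEK293E library (76912 to 94853) than in any HCT116 library (21960 to 42885). The same held for the other 3 members and for 63.1% of all miRNAs tested. With TMM scaling the log2 fold change of miR-320a, HEK293E over HCT116, was 0.25 ± 0.35 (adjusted p = 0.55). None of the 4 members was called on the TMM scale, where 319 of 515 miRNAs were (61.9%). TMM factors were at least 1.32 in HEK293E libraries and at most 0.757 in HCT116 libraries. With library totals alone, miR-320a was 1.28 (adjusted p = 0.0022) and miR-320b 0.85 (0.031) higher in HEK293E, where 311 of 515 miRNAs were called higher. On the list scale miR-320b, miR-320c and miR-320d were called lower in HEK293E, at -1.10, -1.24 and -1.19, where 218 of 515 miRNAs were called lower. With p140, all 4 were called lower in HEK293E with TMM, at -0.91 (miR-320a), -1.20 (miR-320b), -1.19 (miR-320c) and -0.97 (miR-320d), beside 285 of 515 called (55.3%) and 143 called lower (27.8%). With library totals alone none of the 4 was called with p140, where 68.2% of all miRNAs tested were, and miR-320a was at 0.02. Without HCT116 p140 replicate 1 none was called either, where 46.4% were. At most 2 members were called with p140 when any 1 of HCT116 p140 replicates 1 and 2, HEK293E p140 replicates 1 and 3 or the 3 HEK293E full-length libraries was left out. Those fits called 45.8% to 54.9% of all miRNAs tested. With full-length DROSHA the direction between lines thus changed with the scale for all 4 members, while with p140 it did so for miR-320a alone, and miR-320b, miR-320c and miR-320d were below 0 with TMM, library totals and the list. The epithelial miRNAs summed to 146 to 271 CPM in these HEK293E libraries and 186 to 355 CPM in the libraries labelled HCT116, so they do not set the lines apart as they do wild-type HCT116 cells.

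**Figure D3:**
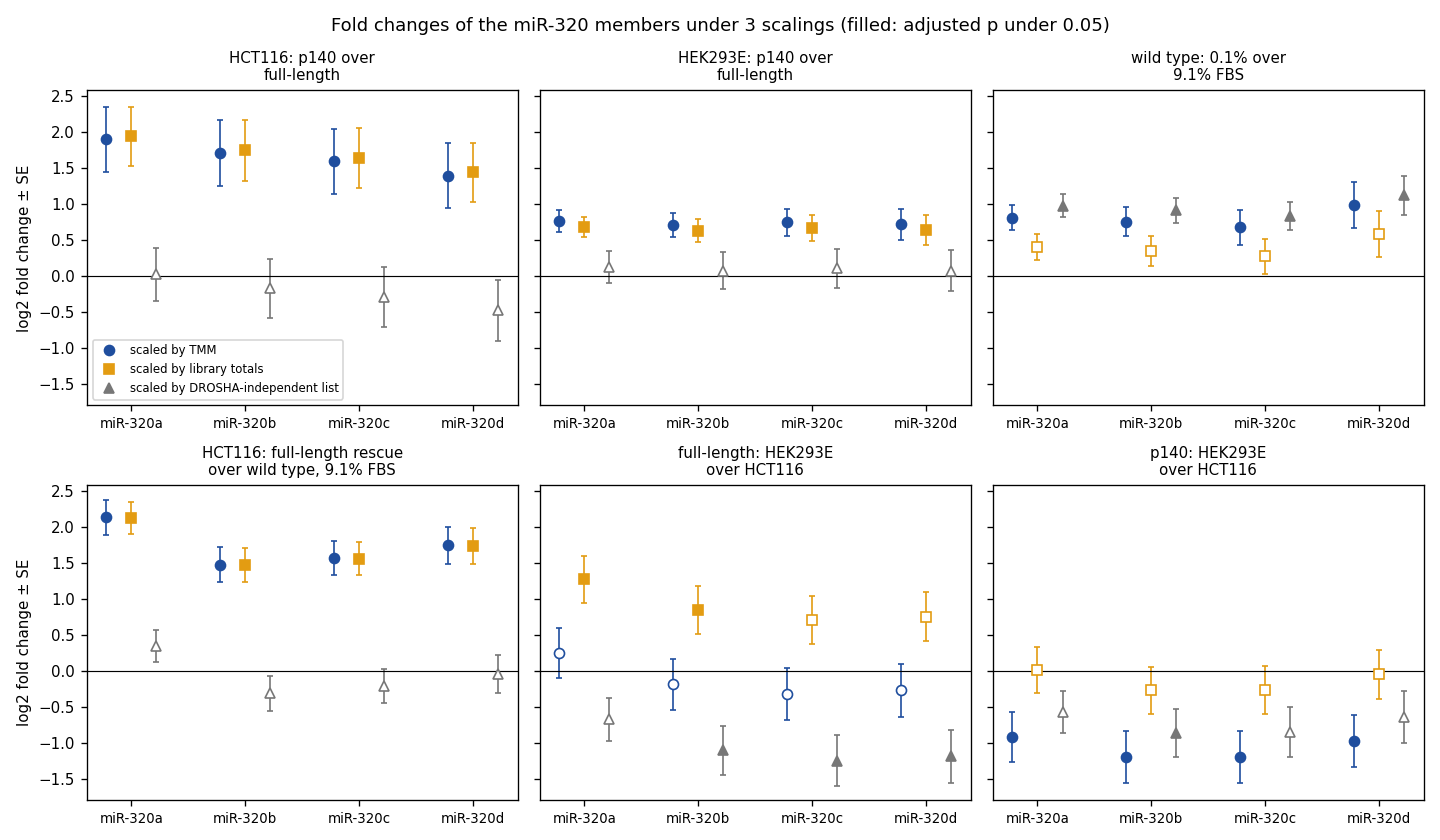
Log2 fold change ± SE of each member in 6 comparisons, scaled by TMM (circles), by library totals (squares) or by the DROSHA-independent list (triangles); filled symbols have an adjusted p under 0.05. The p140 rises hold with TMM and library totals; on the list scale HEK293E values lie near 0 and HCT116 values from 0.03 to -0.47, and the line comparison with full-length DROSHA moves across 0 with the scale. With p140 the line comparison stays below 0 on these 3 scales except for miR-320a with library totals (0.02).

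In wild-type HCT116 cells, 0.1% FBS went with small increases that depended on scaling. miR-320a had 11312, 12182 and 8100 CPM in 0.1% FBS, against 9409, 7692 and 6713 CPM in 9.1% FBS. The groups overlapped, with replicate 3 lowest in both. Between libraries of the same number, miR-320a and miR-320b were higher in 0.1% FBS in 3 of 3 pairs, and miR-320c and miR-320d in 2 of 3. miR-320b spanned 609 to 1007 CPM in 0.1% FBS and 562 to 753 CPM in 9.1% FBS, miR-320c 241 to 450 CPM in 0.1% FBS and 243 to 349 CPM in 9.1% FBS, and miR-320d 118 to 291 CPM in 0.1% FBS and 122 to 181 CPM in 9.1% FBS. With TMM the log2 fold changes were 0.82 ± 0.17 (miR-320a, edgeR adjusted p = 0.0048), 0.76 ± 0.20 (miR-320b, 0.0159), 0.68 ± 0.24 (miR-320c, 0.0468) and 0.99 ± 0.32 (miR-320d, 0.0314). All 4 were called, beside 264 of 577 miRNAs (45.8%) and 147 called higher (25.5%). With the replicate number as a block 4 of 4 were called as well, where 63.6% of all miRNAs tested were. miR-320c lay at the threshold, with an adjusted p of 0.051 with DESeq2's size factors in edgeR and 0.0526 with hairpin copies summed. TMM factors were 0.86 to 0.87 in 0.1% FBS and 1.12 to 1.18 in 9.1% FBS libraries. On the scale of the DROSHA-independent list 4 of 4 were called higher, at 0.84 to 1.13 (edgeR adjusted p = 0.0044 to 0.0198). There 27.7% of all miRNAs tested were called. With library totals alone none of the 4 was called, where 55.6% of all miRNAs tested were, and miR-320a was at 0.41 (adjusted p = 0.079). None was called in a fit of all 18 replicated libraries, where 26.6% of all miRNAs tested were. The count was 1 without 0.1% FBS replicate 1, 2 without 0.1% FBS replicate 2 or without any 1 of the 9.1% FBS libraries, and 4 without 0.1% FBS replicate 3. Those fits called 35% to 47.4% of all miRNAs tested. With both libraries numbered 3 left out, an alternative added after seeing the data, the count was 4, at 0.80 to 1.21, where 58.9% of all miRNAs tested were called.

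The ratio of miR-320a to the DROSHA-independent list was higher in each 0.1% FBS library than in any 9.1% FBS library. Reads of miR-320a were 7.35, 7.54 and 6.60 times those of the list in 0.1% FBS, against 3.55, 3.33 and 4.01 times in 9.1% FBS. The log2 ratio averaged 2.84 ± 0.10 in 0.1% FBS and 1.85 ± 0.14 in 9.1% FBS (SD, n = 3 each), a difference of 0.98 without overlap (exact permutation p = 0.1, the smallest that 3 against 3 can give). Of 9 list members tested, 2 rose (miR-3615 at 0.58 and 1 other) and 3 fell (miR-1226-3p at -0.94 and 2 others), with a median of -0.37 beside 0.79 for the miR-320 members. miR-484 was at -0.23 and miR-877-5p at -0.37, and neither passed.

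**Figure D4:**
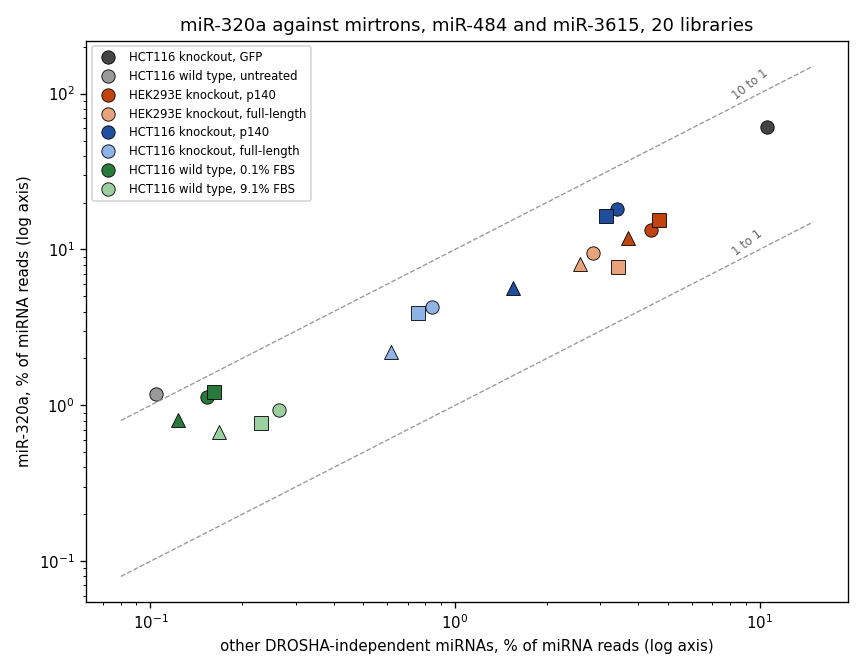
Share of miRNA reads of miR-320a against the summed share of mirtrons, miR-484 and miR-3615 in the 20 libraries (both axes log; dashed lines mark ratios of 1 to 1 and 10 to 1). The ratio ranges from 2.24 (HEK293E with full-length DROSHA, replicate 2) to 11.4 (untreated wild type).

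All 4 members were higher in HCT116 knockout cells with full-length DROSHA than in wild-type cells with TMM or library totals, and 3 of them turned negative, uncalled, on the list scale. miR-320a had 42885, 39348 and 21960 CPM in the rescued cells, against 9409, 7692 and 6713 CPM in wild-type cells in 9.1% FBS. None of the 4 members overlapped between these groups, as 31.1% of all miRNAs tested did not with higher values in the rescue. With TMM the log2 fold changes were 2.14 ± 0.25 (miR-320a, edgeR adjusted p = 5.64e-05), 1.48 ± 0.25 (miR-320b, 5.72e-04), 1.57 ± 0.23 (miR-320c, 2.72e-04) and 1.75 ± 0.26 (miR-320d, 2.46e-04). Of all miRNAs tested, 331 of 566 were called (58.5%) and 163 were higher (28.8%). All 14 tested list members were higher too, with a median of 2.26. Only 9 of them passed the filter on low counts when the wild-type serum groups were compared. The others entered through the rescue group, where they were high, so the count and the median are partly set by the filter. On the list scale the miR-320 members were at 0.35, -0.31, -0.21 and -0.04 with none called. The labels do not say whether the 2 groups were grown together, and the groups differ in the epithelial miRNAs given above, 285 to 355 CPM in the rescue and 40046 to 44283 CPM in 9.1% FBS, so the rescue and this difference cannot be told apart.

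The proportions within the family are free of library scaling, and they spanned a narrower range than the levels did. They rest on the deposited assignment of reads to members, whose rule for multiply mapped reads is not given. How far reads of one member were counted for another was not tested. miR-320b reads amounted to 3.94%, 3.78% and 3.97% of miR-320a reads in HEK293E cells with p140, against 4.04%, 4.02% and 4.02% with full-length DROSHA. In HCT116 cells they were 4.69%, 4.81% and 4.71% with p140, against 5.36%, 5.49% and 5.44% with full-length DROSHA. Replicates thus agreed closely, and in each line the p140 libraries lay below the full-length ones. Over both lines the ratio fell by 8.13% with p140 (log2 difference -0.12; exact permutation test within lines, p = 0.005, the smallest possible; adjusted p = 0.04 over 24 ratio comparisons). That test did not pair libraries by replicate number, and the change was -12.7% in HCT116 and -3.27% in HEK293E. The ratio was lower in HEK293E than in HCT116 within both DROSHA forms: it fell by 21.9% (log2 difference -0.36, exact permutation p = 0.005, adjusted 0.04), and for miR-320c to miR-320a the line difference was -0.43 (exact permutation p = 0.005, adjusted 0.04).

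For miR-320c and miR-320d, ratios to miR-320a with p140 were not separated from full-length DROSHA after adjustment. The log2 differences over both lines were -0.17 for miR-320c and -0.26 for miR-320d (exact permutation p = 0.04 each, adjusted 0.133). Within HCT116 they were -0.34 and -0.51 without overlap, and within HEK293E -0.01 and -0.02 with overlap. miR-320d amounted to 1.08%, 0.948% and 1.06% of miR-320a in HCT116 cells with p140, against 1.33%, 1.53% and 1.53% with full-length DROSHA. The line difference of miR-320d to miR-320a was -0.30 (exact permutation p = 0.03, adjusted 0.133).

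Relative to miR-320a, miR-320b and miR-320c were more abundant in each serum library than in any other library, while miR-320d in 0.1% FBS replicate 3 lay below 2 of the HCT116 full-length libraries. miR-320b was 8.77%, 8.27% and 7.52% of miR-320a in 0.1% FBS, against 8.01%, 9.44% and 8.37% in 9.1% FBS, so the serum groups overlapped (log2 difference -0.07, exact permutation p = 0.5). miR-320c ranged over 2.97 to 3.74% in 0.1% FBS and 3.47 to 4.53% in 9.1% FBS, and miR-320d over 1.46 to 2.39% in 0.1% FBS and 1.57 to 2.35% in 9.1% FBS. The single libraries had lower values: miR-320b was 4.25% of miR-320a in the knockout with GFP and 5.16% in untreated wild type, a ratio of 0.824 between them (95% counting interval 0.740 to 0.917). For miR-320c that ratio was 1.02 (0.861 to 1.20) and for miR-320d 1.18 (0.906 to 1.55), so both intervals include 1. Untreated wild-type cells thus lay below each 9.1% FBS library in the ratio of miR-320b to miR-320a. Among replicates the mix of the 4 members varied near counting noise in the rescued groups (chi-square per degree of freedom 0.940 to 2.10), but beyond it in 0.1% FBS (16.98) and 9.1% FBS (10.3).

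**Figure D5:**
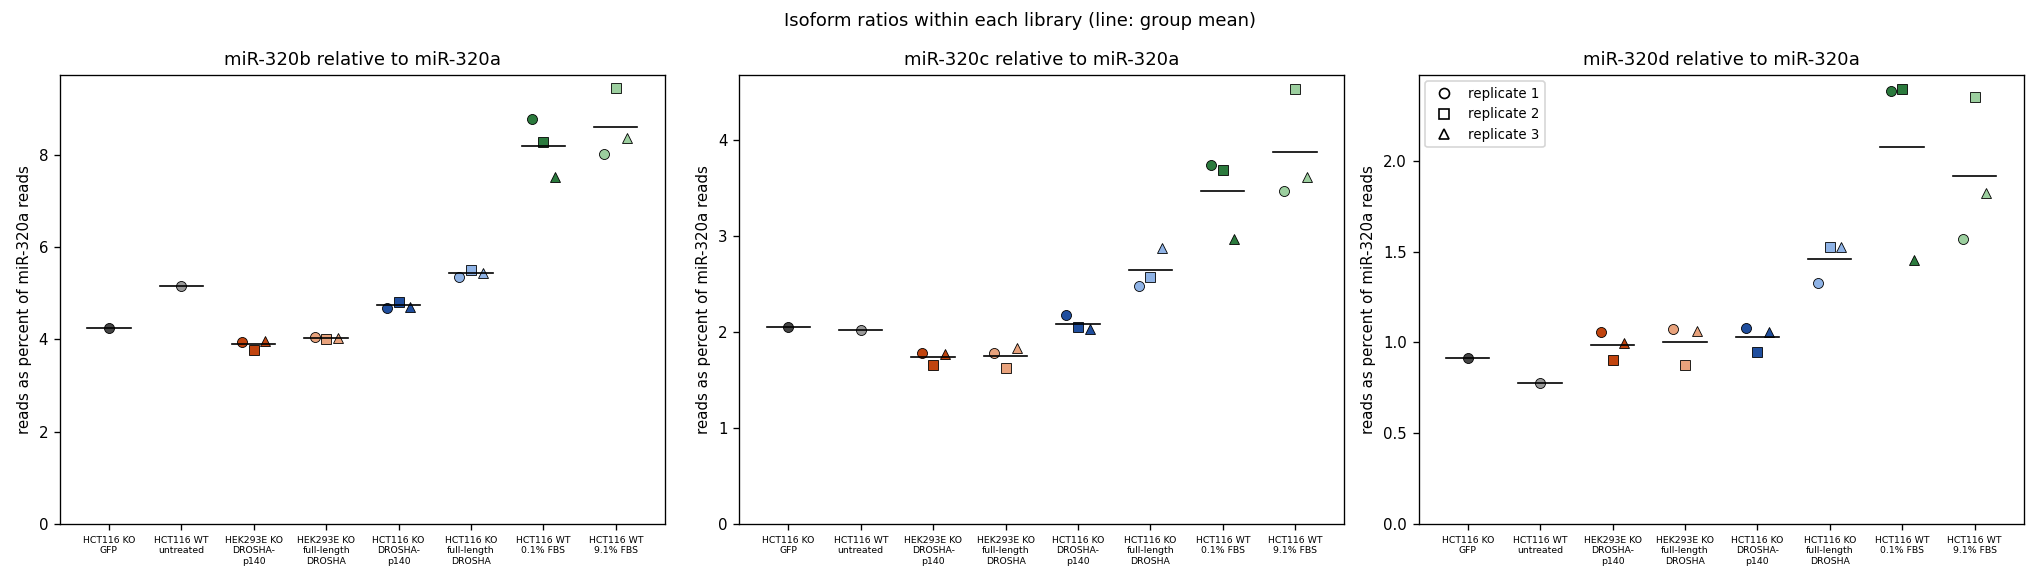
Reads of miR-320b, miR-320c and miR-320d as percent of miR-320a reads in each library, by group; symbols are replicates and lines group means. HEK293E libraries lie lowest and the serum libraries highest for miR-320b and miR-320c, while for miR-320d the serum libraries (1.46 to 2.39%) overlap HCT116 with full-length DROSHA (1.33 to 1.53%).

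The relatives outside the family were rarer. miR-320e, which lies in an intron of PRKD2 on chromosome 19, had 31 reads in the knockout with GFP (810 CPM) and 4 in untreated wild type (4.67 CPM), a 173-fold ratio with a counting interval of 61.3 to 676. It rose with p140 in HCT116 (log2 fold change 1.06, edgeR adjusted p = 0.0173; -0.69, uncalled, on the list scale) and in 0.1% FBS (1.46, adjusted p = 0.0283; 1.06, adjusted p = 0.0789, with library totals alone), and was at 0.63 with p140 in HEK293E (adjusted p = 0.275). miR-4429, with the family's seed, had 1 to 9 reads per library, too few for a comparison.

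Outside the family, the profiles most like that of miR-320a were found by the SD of the log2 ratio of reads to miR-320a over all 20 libraries, among 81 miRNAs with at least 10 reads in every library. They were miR-1254 (SD 0.481), miR-877-5p (0.648), miR-484 (0.734), miR-4454 (0.783) and miR-1275 (0.822), where the median of the compared miRNAs was 2.29. The members themselves had SDs of 0.453 (miR-320b), 0.458 (miR-320c) and 0.507 (miR-320d), so miR-1254 followed miR-320a about as closely as miR-320d did. Without the GFP library, 198 miRNAs could be compared, and the nearest were miR-1254 (0.489), miR-877-5p (0.665), miR-4454 (0.706), miR-484 (0.719) and miR-6511b-3p (0.728), against a median of 1.75. The 20 libraries share groups and depth, so these values are a description.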

How the data were processed

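Per the labels' protocols, total RNA was mixed with spike-in RNAs, size-selected, ligated to random-base adaptors and read on a MiSeq. Adaptor trimming, alignment and counting rested on cutadapt, STAR and bedtools with hg38, per the submitters' processing notes. For versions, annotation release and multiply mapped reads the entry is not given in the sources used here. Values deposited by the authors are raw counts per mature miRNA and hairpin copy (2813 per library); spike-ins were not used here. No pair of libraries was identical. The copy with the highest total was kept for each miRNA. CPM, shares and ratios were computed with Python 3.11.15 and tested with exact permutation tests (two-sided, SciPy 1.17.1), after checks on simulated data.

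The main test was edgeR's (version 4.0.16; R 4.3.3) quasi-likelihood test (TMM, filterByExpr with a minimum count of 10, Benjamini-Hochberg over all miRNAs tested, threshold 0.05); DESeq2 1.42.0 was an alternative. Line contrasts and the interaction came from one fit of 12 libraries, other comparisons from their own 6. The labels do not say that replicate numbers pair the samples. Deviations of same-numbered libraries from their group means correlated by 0.41, 0.32 and 0.64 (p140 and full-length DROSHA in HCT116) and 0.46, 0.31 and 0.29 (HEK293E). The correlations were 0.27, 0.15 and 0.67 for serum, 0.32, 0.14 and 0.36 for full-length rescue and 9.1% FBS, and at most 0.088 between lines. The same-numbered library was the best match in 6 of 6 cases for p140 in each line and for the rescue, but in 3 of 6 for serum. What the shared numbers stand for was not tested. The members and lists were chosen with earlier results of these data known. Named are the 4 members, relatives in the seed, miR-484, miR-3615, miR-877-5p and miR-1226-3p of the list, and the 5 miRNAs nearest to miR-320a; 3 others were named after their values were seen. Other alternatives were no filter, other scalings, summed copies, one fit of all 18 replicated libraries, a replicate block and leaving out libraries. Other cell-type markers were checked: intestinal miRNAs (3) summed to 52.2 to 495 CPM and muscle, liver and neuron miRNAs (4) to 1.17 to 210 CPM over all groups.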

Additional observations from a re-analysis of the deposited data

How the results depend on the processing

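For 79 results, 1032 combinations of a result and an alternative setting were computed. Scaled to the DROSHA-independent list, none of 4 members was called for p140 in HCT116, p140 in HEK293E or the full-length rescue against 9.1% FBS (0 of 4 each); 3 were called for HEK293E over HCT116 with full-length DROSHA and 1 with p140. For serum 4 of 4 were called higher on the list scale. On that scale, miR-320b, miR-320c and miR-320d with p140 in HCT116 turned to -0.17, -0.29 and -0.47, the difference of the p140 effect between lines to 0.10, 0.25, 0.40 and 0.55 (miR-320a to miR-320d), miR-320a in HEK293E over HCT116 with full-length DROSHA to -0.67, and miR-320b, miR-320c and miR-320d in the rescue to -0.31, -0.21 and -0.036. The knockout over untreated wild type turned on that scale to ratios of 0.506 (miR-320a), 0.416 (miR-320b), 0.514 (miR-320c) and 0.596 (miR-320d); that of miR-320a was 148 with members left out of the totals and 56.6 with hairpin copies summed.

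With library totals alone, 0 of 4 were called for serum, 0 of 4 for HEK293E over HCT116 with p140 (miR-320a at 0.0175) and 2 of 4 with full-length DROSHA, where miR-320b, miR-320c and miR-320d turned to 0.85, 0.71 and 0.76. One fit of all 18 libraries called 0 of 4 for p140 in HEK293E and 0 of 4 for serum. DESeq2 called 2 of 4 for HEK293E over HCT116 with p140. Without the filter on low counts, 1 member was called for the difference between lines. The replicate block called 3 of 4 for that difference and changed no other count of members; the same block on ratios over both lines, with -0.17 (miR-320c) and -0.26 (miR-320d) to miR-320a, gave no p under 0.05. Without the HCT116 libraries numbered 3 these were -0.13 and -0.26. Against mirtrons alone, the p140 difference of miR-320a was -0.12 in HCT116 and -0.026 over both lines. With copies summed, the family's share with p140 differed by -0.854 points, HEK293E minus HCT116.

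Leaving out one library moved the count of called members over 1 to 4 (p140 in HCT116), 1 to 4 (p140 in HEK293E), 1 to 4 (serum), 0 to 3 (difference between lines) and 0 to 4 (HEK293E over HCT116 with p140). In the same order, the share of all miRNAs tested that was called moved over 37.6 to 69.2%, 19.2 to 30%, 35 to 47.4%, 0.883 to 14.9% and 45.8 to 54.9%. Values ran from -0.37 to 0.047 for miR-320b in HEK293E over HCT116 with full-length DROSHA, and from -4.15 to 2.59 points for the share with p140 between lines. The log2 ratio to miR-320a ran from -0.059 to 0.029 for miR-320c and -0.12 to 0.039 for miR-320d with p140 in HEK293E, from -0.20 to -0.14 for miR-320c and -0.31 to -0.23 for miR-320d with p140 over both lines, from -0.031 to 0.34 for miR-320d with serum, and from -0.12 to 0.00028 (p140) and -0.34 to -0.25 (both forms) for miR-320d between lines. miR-320a to the list ran from -0.15 to 0.21 with p140 in HCT116 and from -0.027 to 0.26 in HEK293E. The causes of these shifts were not tested. Depth limits the knockout with GFP (38288 reads), miR-320e and miR-4429, and 3 libraries per group cannot bring an exact test below 0.1.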
